A study of Arabidopsis thaliana with 6 samples.

Results

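The UDP-glycosyltransferases (UGTs) studied here are 42 genes of Arabidopsis thaliana, taken from the 22746 probe sets of the array that are not controls. A gene was included when the platform annotation gave its probe set 1 gene whose symbol begins with UGT, 2 digits and a letter, whatever its level. UGT78D1, UGT78D2, UGT78D3, UGT73B4 and UGT74B1 were left out by the same rule, and 3 further probe sets were left out because they name a UGT beside another gene. Each of the 42 genes had 1 probe set, and all 42 kept their symbol in the newer RefSeq annotation. They fall into 10 subfamily numbers, 71 to 88. The rule uses names and no measured value, but it was drawn up with earlier results of these data known, and the name pattern does not set the 5 genes left out apart from the 42.

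Shoots of 2-week-old Col-0 seedlings were profiled on 6 Affymetrix ATH1 arrays, 1 RNA sample each. All plants carried an inducible MYB112 overexpression construct (MYB112-IOE), in which estradiol switches on MYB112, a transcription factor of the R2R3-MYB class, and all came from 1 transgenic line (line 1). The groups were 10 µM estradiol for 3 h (n = 1) with DMSO for 3 h (n = 1), and 10 µM estradiol for 5 h (n = 2) with DMSO for 5 h (n = 2). Treatment began 16 h after transfer to shaken liquid medium, and the question of the series is which genes MYB112 may act on early. Plants lacking the construct but given estradiol were not analysed here, so an effect of estradiol itself and an effect of MYB112 cannot be told apart, and the level of MYB112 is not reported because no probe set carried its name.

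UGTs move a sugar, usually glucose from UDP-glucose, onto small molecules, and all share a conserved sugar-donor binding box near the C terminus. In plants they conjugate hormones such as auxin, cytokinin, abscisic acid and salicylic acid, phenolic compounds such as monolignols and flavonoids, sterols, and foreign chemicals. The attached sugar generally makes the acceptor more soluble, less active or ready for storage in the vacuole. The letter after the number in a UGT symbol marks a group of close relatives, which often lie side by side in the genome.

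All levels are the deposited log2 values of a probe set, and every difference is estradiol minus DMSO on that scale, so that a difference of 1 is 2-fold. A bright probe set need not mean an abundant transcript, so levels are compared within a gene and not between genes. The arrays of each same-time, same-number pair shared a lowest value of their own (2.1 at 3 h, 2.14 in replicate 1 and 2.16 in replicate 2 of 5 h). Their values correlated at 0.994 to 0.998 within pairs and at 0.954 to 0.966 between pairs. The pairs were therefore read as normalized separately, and a level set against another pair carries that difference too. As a check of the tissue, the 2 shoot markers with a named probe set, RCA and LHCB4.1 of photosynthesis, had levels of 12.72 to 13.84. The 2 root markers with a named probe set, EXPA7 and EXPA18, had at most 2.96. A lower level in bulk shoots could come from fewer cells of a type or from less RNA per cell, and these cannot be told apart.

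Of the 42 genes, 22 reached a level of 3.56 (the 40th percentile of all values) on at least 2 arrays and are called measurable below. The other 20 stayed under that line on all or all but 1 of the arrays. They were UGT71B5, UGT71B6, UGT71B8, UGT71C1, UGT71C2, UGT71C3, UGT72E3, UGT73C2, UGT73C7, UGT73D1, UGT74F1, UGT76D1, UGT76E1, UGT76E2, UGT84A1, UGT84A4, UGT84B1, UGT84B2, UGT85A3 and UGT85A7. Among them 8 sat at the lowest value of each of the 6 arrays, including UGT84B1, whose enzyme conjugates the auxin indole-3-acetic acid, UGT71B6, an abscisic acid glucosyltransferase, and UGT72E3, which glucosylates monolignols. Such values set only an upper limit on the transcript. By subfamily number, 3 of 9 genes were measurable in 71, 3 of 4 in 72, 3 of 6 in 73, 1 of 2 in 74, 5 of 8 in 76, 1 of 5 in 84 and 3 of 5 in 85. The single genes of 80, 87 and 88 were also measurable.

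UGT85A2 (AT1G22360) was higher with estradiol in all 3 pairs, with nearly equal differences in the 2 pairs of 5 h. Its levels were 10.12 with estradiol and 9.65 with DMSO at 3 h. At 5 h they were 11.40 and 11.26 with estradiol, against 9.52 and 9.39 with DMSO. The lowest of the 3 estradiol values lay above the highest of the 3 DMSO values. The differences in the 3 pairs were 0.47, 1.88 and 1.87, with a mean of 1.41 (SD 0.81, n = 3 pairs). UGT85A2 was the 1 gene of the 42 (2.38%) whose estradiol arrays all lay above its DMSO arrays, against 0.453% of all probe sets.

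The 5 h difference of UGT85A2 was 1.88 (SE 0.14, n = 2 arrays per treatment), a fold change of 3.67, and it did not pass the test over all probe sets (limma unadjusted p = 0.000119, adjusted p = 0.837). Over both times it was 1.41 (SE 0.31, n = 3 arrays per treatment, limma unadjusted p = 0.0054, adjusted p = 1). The effect at 5 h minus the effect at 3 h was 1.41 (SE 0.24, limma unadjusted p = 0.00395, adjusted p = 1), with the single 3 h arrays assumed to vary like those of 5 h. In fits that hold each same-time, same-number pair as a block, the unadjusted p values were 0.000184, 0.0206 and 0.00191 in these 3 tests, and the adjusted p values 0.58, 0.5 and 0.988. Over 9, 11 and 9 alternatives the adjusted p ran from 0.58 to 1, from 0.5 to 1 and from 0.988 to 1.

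UGT85A2 lies in a run of 4 neighbouring genes in the RefSeq gene order, UGT85A7 (AT1G22340), UGT85A2, UGT85A5 (AT1G22370) and UGT85A3 (AT1G22380). UGT85A5 had levels of 2.24 with estradiol and 2.24 with DMSO at 3 h, 5.01 and 4.52 in replicate 1 of 5 h, and 3.64 and 3.40 in replicate 2. Its differences of 0.00, 0.49 and 0.24 were smaller than those of UGT85A2, and its 2 estradiol values at 5 h overlapped its DMSO values. UGT85A7 stayed at 2.43 to 3.19 and differed by 0.00, 0.00 and 0.76, all under the line of 3.56. UGT85A3 was at the lowest value of every array. Whether RNA of one of these relatives binds the probes of another was not tested.

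UGT85A4 (AT1G78270), the member of the UGT85A group outside that run, differed the other way at 5 h. Its levels were 8.03 with estradiol and 7.98 with DMSO at 3 h, 7.67 and 8.15 in replicate 1 of 5 h, and 6.82 and 7.59 in replicate 2. The 5 h difference was −0.62 (SE 0.39, n = 2 arrays per treatment, adjusted p from limma = 1), and its estradiol and DMSO values at 5 h overlapped. With pairs as blocks the SE was 0.13 and the limma unadjusted p 0.023 (adjusted p = 0.58). Leaving out 1 array breaks a pair, so the difference then also holds that between pairs. It was −1.05 and −0.20 without the estradiol array of replicate 1 and of replicate 2. Without the DMSO array of replicate 1 and of replicate 2 it was −0.34 and −0.905. The 5 UGT85A genes thus held the largest positive difference of the 42 genes, a gene that was lower in both pairs of 5 h, and 2 genes under the line.

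**Figure D1:**
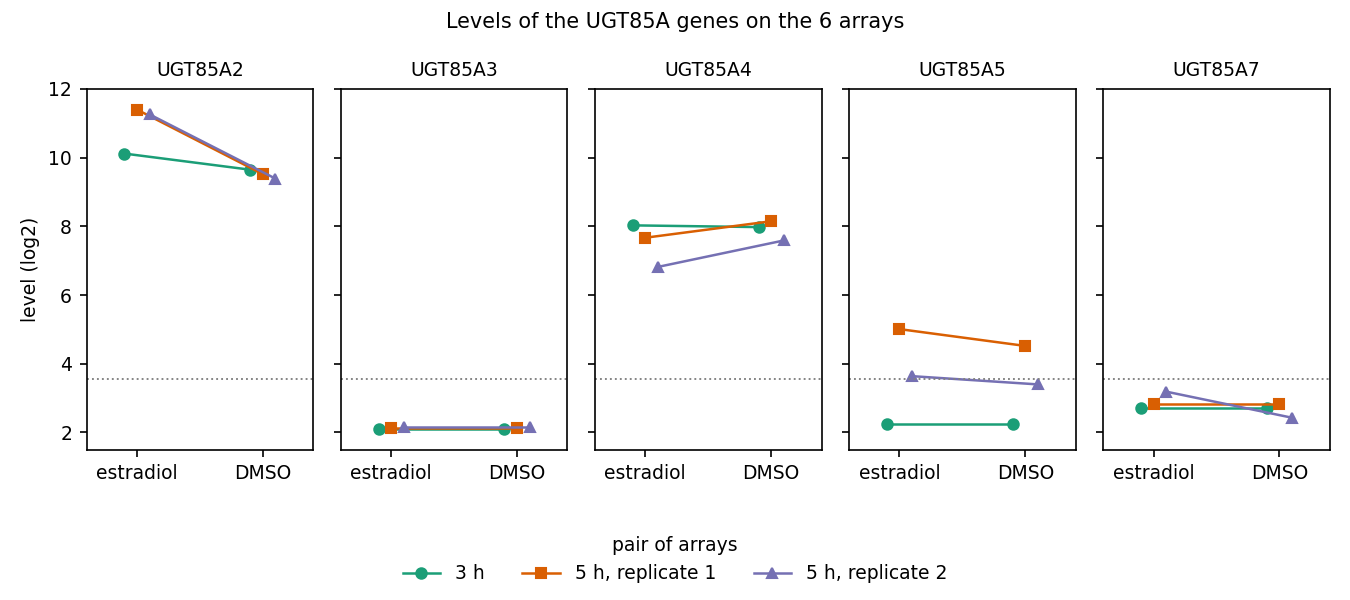
Levels (log2) of the 5 UGT85A genes, with estradiol on the left and DMSO on the right of each panel; each line joins the 2 arrays of a pair, and the dotted line is the level of 3.56 used as the filter. UGT85A2 is at 11.40 and 11.26 with estradiol at 5 h, against 9.52 and 9.39 with DMSO, while UGT85A4 slopes the other way at 5 h and UGT85A3 lies at the lowest value of each array.

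Genes of monolignol and phenylpropanoid conjugation did not move together. UGT72E1 (AT3G50740), whose enzyme glucosylates the lignin aldehydes coniferaldehyde and sinapaldehyde, had levels of 9.75 with estradiol and 9.90 with DMSO at 3 h. At 5 h it had 8.32 and 7.68 with estradiol, against 9.20 and 8.78 with DMSO. Both estradiol values at 5 h lay below both DMSO values, which held for 1 of the 42 genes (2.38%) and for 6.26% of all probe sets. In the upward direction the same held for UGT85A2 alone, 1 of 42, against 5.67% of all probe sets. The 5 h difference of UGT72E1 was −0.99 (SE 0.30, n = 2 arrays per treatment), a fold of 0.503, and limma gave it an unadjusted p of 0.0277 and an adjusted p of 1. The fit with pairs as blocks gave an unadjusted p of 0.00402 and an adjusted p of 0.58, and over 9 alternatives the adjusted p ran from 0.58 to 1. Over both times the difference was −0.71 (SE 0.28, n = 3 arrays per treatment, limma unadjusted p = 0.0488, adjusted p = 1), and 5 h minus 3 h it was −0.84 (SE 0.53, adjusted p = 1). Without the estradiol array of replicate 2 of 5 h these 2 values were −0.45 and −0.52. With pairs as blocks limma gave the 2 tests unadjusted p values of 0.0381 and 0.0247, and adjusted p values of 0.506 and 0.988.

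UGT72E2 (AT5G66690), which glucosylates the monolignols coniferyl and sinapyl alcohol, differed upward at 5 h. Its levels were 4.75 with estradiol and 4.75 with DMSO at 3 h, 5.57 and 4.45 in replicate 1 of 5 h, and 3.31 and 2.74 in replicate 2. The replicate 2 values lay under the line of 3.56, and the estradiol and DMSO values at 5 h overlapped. The 5 h difference was 0.84 (SE 1.07, n = 2 arrays per treatment, adjusted p from limma = 1). With pairs as blocks the SE was 0.19 and the limma unadjusted p 0.0296 (adjusted p = 0.58). The difference was −0.01 without the DMSO array of replicate 2 and 1.98 without the estradiol array of replicate 2. Each of these 2 values breaks a pair and so also holds the difference between pairs. UGT72E1 and UGT72E2 therefore had opposite signs in both pairs of 5 h, with −0.88 and −1.10 for UGT72E1 and 1.12 and 0.57 for UGT72E2. The difference between these genes was not tested.

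UGT84A3 (AT4G15490) makes glucose esters of hydroxycinnamic acids, and the sign of its difference varied between the pairs. Its levels were 7.18 with estradiol and 7.83 with DMSO at 3 h, 6.38 and 5.99 in replicate 1 of 5 h, and 4.71 and 5.52 in replicate 2. It was lower with estradiol at 3 h and in replicate 2 of 5 h and higher in replicate 1. Its neighbours UGT84A1 (AT4G15480) and UGT84A4 (AT4G15500) had at most 2.18 and 3.09. In the list of 8 monolignol and phenylpropanoid UGTs, 6 were among the members and 3 were measurable, and limma called 0 of these at 5 h (0.0071% of all probe sets) or over both times (0.00689%). UGT72E1 was the 1 gene at an unadjusted p under 0.05 in both tests (1.15% and 1.9% of all probe sets). The list median was 0.00, 0.00 and −0.03 in the 3 pairs.

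Among the cytokinin UGTs, UGT76C2 (AT5G05860), an N-glucosyltransferase that inactivates cytokinins, was lower with estradiol in 3 of 3 pairs. Its levels were 7.08 with estradiol and 7.35 with DMSO at 3 h, 6.86 and 7.46 in replicate 1 of 5 h, and 6.03 and 6.67 in replicate 2. Each estradiol value was below its own DMSO value, but the groups overlapped across pairs. The mean difference was −0.50 (SD 0.20, n = 3 pairs). Its 5 h difference was −0.62 (SE 0.45, n = 2 arrays per treatment, limma unadjusted p = 0.233, adjusted p = 1). With pairs as blocks the SE was 0.11 and the limma unadjusted p 0.0156 (adjusted p = 0.58). The 2 pairs of 5 h differed by −0.60 and −0.64. Leaving out 1 array breaks a pair, so the value then also holds the difference between pairs. It was −1.03 and −0.20 without the estradiol array of replicate 1 and of replicate 2. Without the DMSO array of replicate 1 and of replicate 2 it was −0.23 and −1.01. Over both times the difference of −0.50 was −0.23 without the estradiol array of replicate 2 and −0.24 without the DMSO array of replicate 1 of 5 h. Over both times its limma unadjusted p was 0.186 (adjusted p = 1). Blocking on pairs gave 0.0145 (adjusted p = 0.5), the smallest of any member in that blocked test, and over 11 alternatives the adjusted p ran from 0.5 to 1. UGT76C1 (AT5G05870), the next gene along and also a cytokinin N-glucosyltransferase, differed by 0.00, 0.22 and −0.19. UGT73C1, whose enzyme has been tied to cytokinin O-glucosylation, differed by −0.39, 0.33 and 0.00.

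The remaining UGT76 genes differed by pair. UGT76E11 (AT3G46670) had levels of 7.65 with estradiol and 7.63 with DMSO at 3 h, 8.07 and 7.07 in replicate 1 of 5 h, and 6.14 and 5.88 in replicate 2. It was higher in all 3 pairs, by 0.02, 1.00 and 0.26. UGT76E12 (AT3G46660) had 5.11 with estradiol and 6.19 with DMSO at 3 h, a difference of −1.08, and no such difference at 5 h. There it had 3.06 and 2.17 with estradiol, against 3.06 and 2.16 with DMSO, values under the line of 3.56. Its effect at 5 h minus 3 h was 1.08 (SE 1.01, limma adjusted p = 1), with an unadjusted p of 0.341, or 0.00405 when pairs were blocks (adjusted p = 0.988). The blocked fit takes its error from the 2 pairs of 5 h and, through limma, from other probe sets. Those pairs differed by 0.00 and 0.01 under the line, so this p does not measure the spread of the 3 h pair. The effect was 0.64 and 1.53 without the estradiol array of replicate 1 and of replicate 2 of 5 h. Without the DMSO array of replicate 1 and of replicate 2 it was 1.535 and 0.63. UGT76D1 (AT2G26480), which conjugates dihydroxybenzoic acids made from salicylic acid, had 2.94 with estradiol and 4.06 with DMSO at 3 h and at most 2.39 at 5 h. UGT76B1 (AT3G11340), which glucosylates isoleucic acid and the immune signals salicylic acid and N-hydroxypipecolic acid, differed by 0.03, 0.34 and −0.05.

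Genes that act on other hormones had small differences, of both signs. UGT74D1 (AT2G31750), an auxin glucosyltransferase, had levels of 9.57 with estradiol and 9.83 with DMSO at 3 h, 9.33 and 9.25 in replicate 1 of 5 h, and 8.45 and 8.78 in replicate 2. UGT71C5 (AT1G07240), an abscisic acid glucosyltransferase, had 8.09 with estradiol and 8.43 with DMSO at 3 h, 7.15 and 7.09 in replicate 1, and 6.82 and 6.92 in replicate 2. Its effect at 5 h minus 3 h was 0.32 (SE 0.41, limma adjusted p = 1), and it was 0.15 without the estradiol array of replicate 1 and 0.48 without that of replicate 2 of 5 h. Both genes were lower at 3 h and in replicate 2 of 5 h and slightly higher in replicate 1. The salicylic acid gene UGT74F1 stayed at 2.16 to 2.76.

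UGT87A2 (AT2G30140), known for a role in flowering time, had the same order of signs as UGT84A3. Its levels were 10.54 with estradiol and 10.96 with DMSO at 3 h, 9.59 and 8.98 in replicate 1 of 5 h, and 7.86 and 8.57 in replicate 2. The 2 pairs of 5 h thus differed by 0.61 and −0.71. UGT80B1 (AT1G43620), a sterol glucosyltransferase, had 6.96 with estradiol and 6.98 with DMSO at 3 h, 5.82 and 6.22 in replicate 1, and 6.27 and 6.07 in replicate 2. UGT88A1 (AT3G16520) had 10.86 with estradiol and 10.94 with DMSO at 3 h, 11.31 and 11.15 in replicate 1, and 10.86 and 10.90 in replicate 2. None of its 3 differences exceeded 0.16 in size.

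The UGT73 group holds genes that respond to stress and foreign chemicals. Its 3 measurable members of 6 were lower at 3 h and higher in replicate 1 of 5 h. These signs were common in the family. Of all 22 measurable genes, 14 were lower at 3 h and 15 were higher in replicate 1. UGT73B5 (AT2G15480), linked to redox and pathogen responses, had levels of 7.02 with estradiol and 7.41 with DMSO at 3 h, 5.51 and 4.87 in replicate 1 of 5 h, and 3.76 and 3.74 in replicate 2. UGT73B1 (AT4G34138) had 7.02 with estradiol and 7.14 with DMSO at 3 h, 7.90 and 7.71 in replicate 1, and 6.79 and 6.63 in replicate 2. UGT73C1 (AT2G36750) had 6.86 with estradiol and 7.25 with DMSO at 3 h, 3.01 and 2.68 in replicate 1, and 2.16 on both arrays of replicate 2. UGT73B4, the neighbour of UGT73B5 and not counted among the 42, differed by −1.13, 1.51 and 0.07, with the same signs. Of the other UGTs left out, UGT78D1 differed by −0.12, 0.06 and 0.08, UGT78D2 by −0.29, 0.34 and −0.36, and UGT74B1 by −0.01, −0.20 and −0.63.

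**Figure D2:**
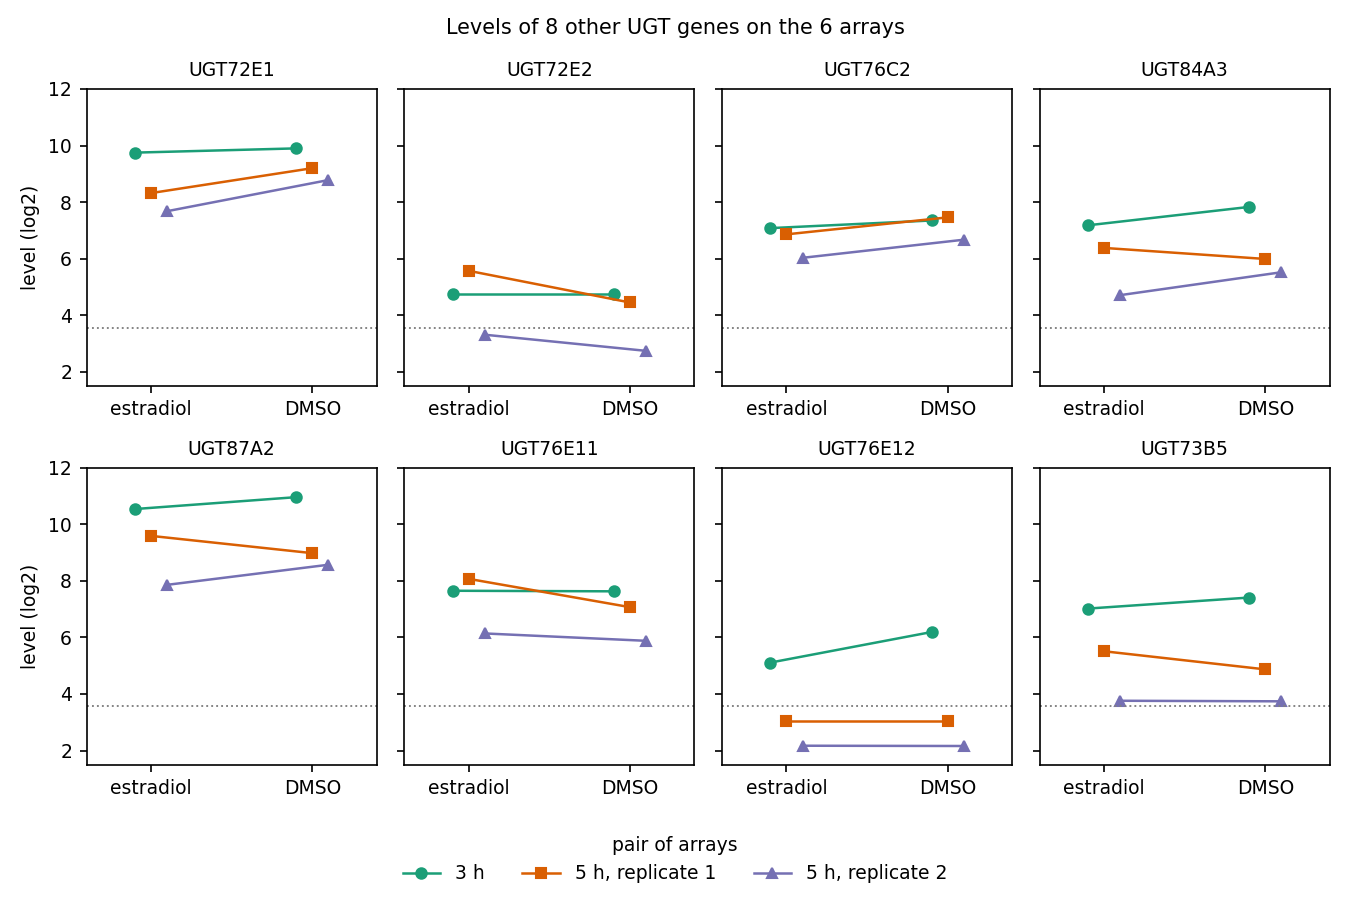
Levels (log2) of 8 UGT genes on the 6 arrays, with estradiol on the left and DMSO on the right; each line joins the arrays of a pair, and the dotted line is the filter of 3.56. UGT72E1 and UGT76C2 are lower with estradiol in each pair, and UGT84A3 and UGT87A2 slope in opposite directions in the 2 pairs of 5 h. UGT72E1, UGT84A3, UGT87A2, UGT76E12 and UGT73B5 have their highest values in the 3 h pair.

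The measurable genes reached different levels in the 3 pairs. At or above 3.56 were 21 of the 42 genes with estradiol and 22 with DMSO at 3 h, 20 and 20 in replicate 1 of 5 h, and 17 and 16 in replicate 2. The shares of all probe sets at that level were 60.9% and 60.9%, 60.5% and 60.3%, and 58.8% and 58.8%. For 6 of the 22 measurable genes some arrays were under the line, namely UGT72B3, UGT72E2, UGT73C1, UGT76B1, UGT76E12 and UGT85A5. UGT72B3 had 6.03 with estradiol and 6.14 with DMSO at 3 h, 3.80 and 3.93 in replicate 1, and 2.39 and 2.23 in replicate 2. UGT76B1 had 6.76 and 6.73, 5.10 and 4.76, and 2.37 and 2.42. UGT85A5 ran the other way and was lowest at 3 h. Time, replicate and normalization cannot be told apart here, and no test of these level differences was made.

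Over the 42 genes, limma called 0 at 5 h (20 tested), 0 over both times (22 tested) and 0 for 5 h minus 3 h (22 tested). Over all probe sets it called 0.0071% at 5 h and 0.00689% over both times, each a single probe set without a named gene, and 0% for 5 h minus 3 h. With pairs as blocks it called 0 members and 0% of all probe sets in each of the 3 tests. At an unadjusted p under 0.05 there were 2 members at 5 h (1.15% of all probe sets), 2 over both times (1.9%) and 1 for 5 h minus 3 h (0.172%). UGT85A2 was in each of these counts, and UGT72E1 was the other gene at 5 h and over both times. With pairs as blocks the counts were 5 (8.29% of all probe sets), 3 (9.75%) and 3 (2.93%). At 5 h these 5 were UGT85A2, UGT72E1, UGT76C2, UGT85A4 and UGT72E2. A call that is not made does not show that a gene did not differ.

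At 3 h, with 1 array per treatment and no replicate error, UGT76D1 and UGT76E12 were at least 2-fold lower, 2 of 42 genes against 0.308% of all probe sets, and 0 were at least 2-fold higher (0.171%). UGT76D1 was not among the measurable genes, of which 1 of 22 was 2-fold lower. In replicate 1 of 5 h, UGT85A2, UGT72E2 and UGT76E11 were at least 2-fold higher, 3 of 42 genes against 0.677%, and 0 were 2-fold lower (0.418%). In replicate 2, UGT85A2 was 2-fold higher, against 0.87% of all probe sets, and UGT72E1 2-fold lower, against 1.35%. Only UGT85A2 was 2-fold apart in more than 1 pair.

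**Figure D3:**
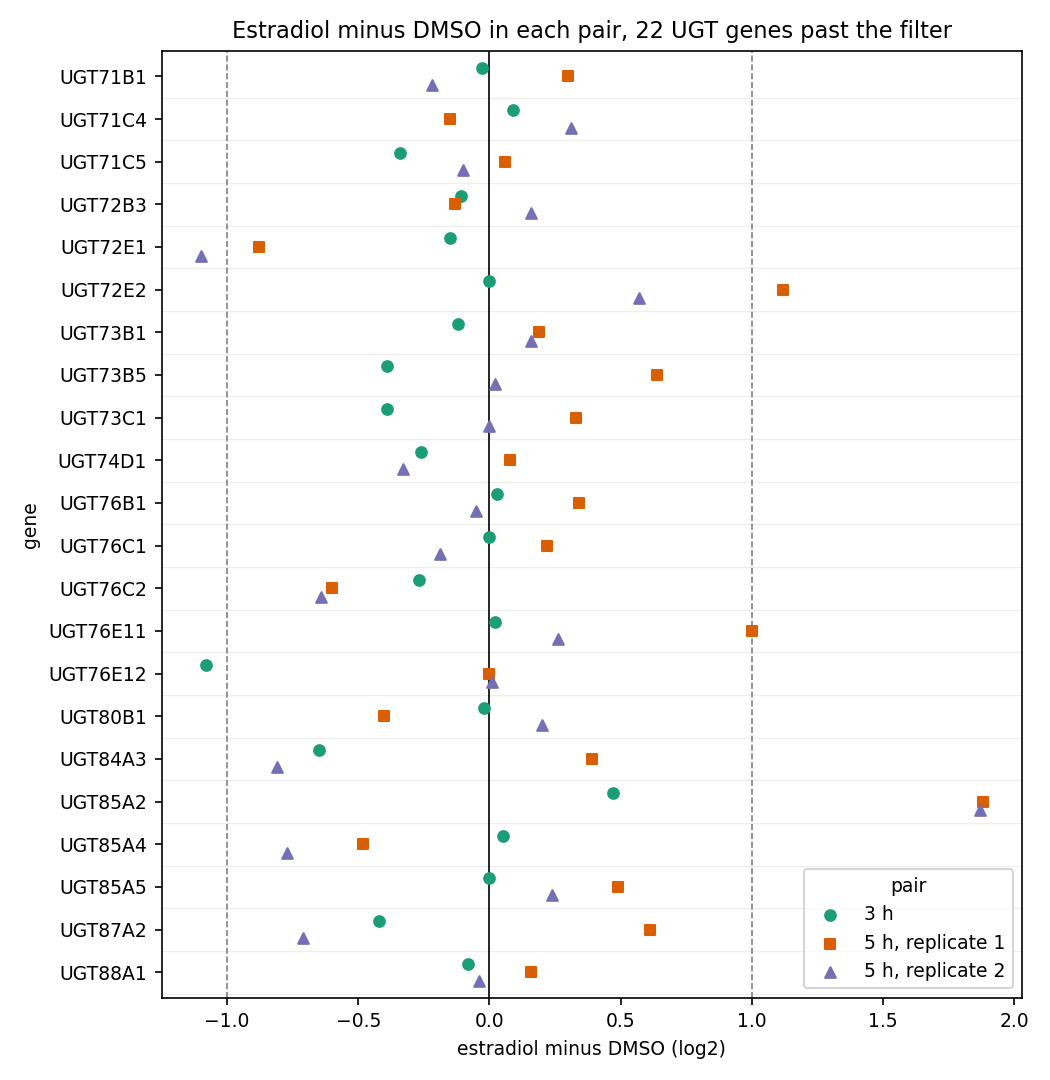
Estradiol minus DMSO difference (log2, horizontal axis) of the 22 measurable UGT genes in the 3 pairs; dashed lines mark 2-fold. UGT85A2 lies to the right in each pair, at 0.47, 1.88 and 1.87, UGT76C2 and UGT72E1 lie to the left in each pair, and most other genes have points on both sides of 0.

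The balance of higher and lower genes differed from pair to pair. At 3 h, 5 of the 42 genes were higher with estradiol (11.9%, against 24.1% of all probe sets), 18 were lower (42.9%, against 33.8%) and 19 were equal to 2 decimals (45.2%, against 42%). In replicate 1 of 5 h, 18 were higher (42.9%, against 32.5%), 7 were lower (16.7%, against 26.9%) and 17 equal (40.5%, against 40.5%). In replicate 2, 12 were higher (28.6%, against 31.9%), 13 were lower (31.0%, against 38%) and 17 equal (40.5%, against 30.1%). The median over the 42 genes was 0.00 in each pair, as it was over all probe sets. Over the 22 measurable genes alone it was −0.10 at 3 h, 0.20 in replicate 1 and −0.02 in replicate 2 of 5 h, where all probe sets past the filter had −0.01, 0.00 and −0.04.

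Few of the genes kept 1 direction. UGT85A2 and UGT76E11 were higher in all 3 pairs, 2 of 42 (4.76%, against 7.88% of all probe sets), and UGT72E1 and UGT76C2 were lower in all 3, also 2 of 42 (4.76%, against 11%). Another 13 were equal in all 3 pairs (31.0%, against 26%), all of them under the filter. The 2 pairs of 5 h had opposite signs for 12 genes (28.6%, against 22.6%). The 3 h pair was opposite to both 5 h pairs for 3 genes (7.14%, against 10.9%). Across the 22 measurable genes the differences of replicates 1 and 2 of 5 h correlated at a Pearson r of 0.715 and a Spearman rho of 0.401, and at 0.509 and 0.311 without UGT85A2 (21 genes). The 3 h differences correlated with those of replicate 1 at 0.273 (rho 0.102), and at −0.007 (rho −0.033) without UGT85A2. With those of replicate 2 they correlated at 0.488 (rho 0.472), and at 0.258 (rho 0.392) without UGT85A2. Over all 14520 probe sets past the filter the r values were 0.371 between the pairs of 5 h, and 0.258 and 0.295 between 3 h and replicates 1 and 2. These correlations are across genes of the same arrays, which are not independent replicates.

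**Figure D4:**
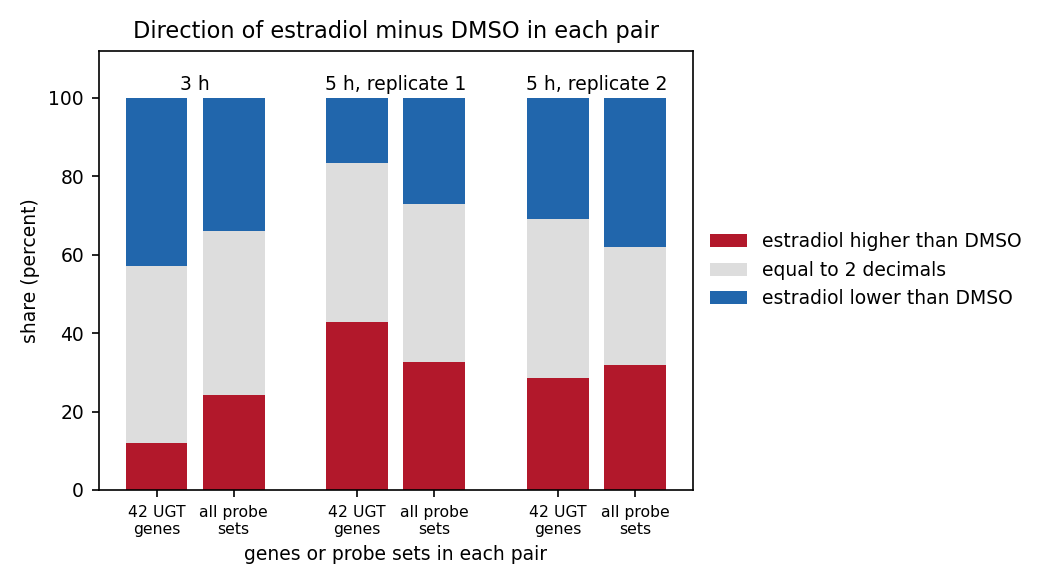
Share (percent) of the 42 UGT genes and of all 22746 probe sets that were higher, equal or lower with estradiol than with DMSO in each pair. In the 3 h pair 42.9% of the UGT genes are lower, and in replicate 1 of 5 h 42.9% are higher; the direction differs between the pairs.

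Neighbouring UGT genes were set side by side, since close relatives in a run can share sequence. In the RefSeq gene order 23 of the 42 genes lie in 10 runs of directly neighbouring UGT genes, and 4 runs hold at least 2 measurable genes. The 5 genes left out by the rule were counted in finding the runs. The run of UGT73B5 and UGT73B4 is 1 of these 4, although UGT73B4 is not among the 42. In the run of UGT71C5, UGT71C4 and UGT71C3, UGT71C4 differed by 0.09, −0.15 and 0.31 and UGT71C5 by −0.34, 0.06 and −0.10, opposite in sign in every pair. In the run of UGT76C2 and UGT76C1, replicate 2 of 5 h was the 1 pair with both genes lower. The UGT85A run had UGT85A2 and UGT85A5 higher in both pairs of 5 h. UGT73B5 and UGT73B4 shared their sign in all 3 pairs, though in replicate 2 of 5 h they differed by only 0.02 and 0.07.

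Genes that supply or accompany UGT reactions were compared by lists. Of 42 gene symbols of UDP-sugar supply and glucose phosphates, 2 matched a named probe set. USP, which makes UDP-sugars from sugar phosphates, differed by 0.07, 0.41 and 0.17. The probe set with the symbol PGM had levels of 7.42 with estradiol and 7.84 with DMSO at 3 h. In the same order it had 5.12 and 6.26 in replicate 1 of 5 h, and 5.14 and 6.46 in replicate 2. It was thus lower in all 3 pairs. The match was by symbol alone, and whether this PGM is the phosphoglucomutase meant by the list was not checked. Limma called 0 of these 2 genes in any of the 3 tests (0.0071%, 0.00689% and 0% of all probe sets at 5 h, over both times and for 5 h minus 3 h), and 1 of the 2 had an unadjusted p under 0.05 at 5 h (1.15% of all probe sets) and 1 over both times (1.9%). Of 13 glutathione S-transferase genes, which also conjugate foreign compounds, 4 were lower, 3 higher and 6 equal at 3 h. In replicate 1 of 5 h 6 were higher, 3 lower and 4 equal, and in replicate 2 there were 2 higher, 7 lower and 4 equal. GSTU25 differed by −1.55, 3.22 and −0.16 and was the 1 of the 13 genes past 2-fold in any pair.

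Of 18 cytochrome P450 genes of the CYP71B group, enzymes that often oxidise a compound before it is conjugated, 5 were higher, 2 lower and 11 equal at 3 h. At 5 h 3 were higher and 6 lower in replicate 1, and 4 higher and 7 lower in replicate 2. CYP71B23 differed by 1.00, 0.46 and −0.21. Of 20 beta-glucosidase genes, whose enzymes can release glucose from conjugates, 6 were higher and 3 lower at 3 h, 4 higher and 5 lower in replicate 1, and 2 higher and 8 lower in replicate 2. The medians of the glutathione S-transferase, P450 and beta-glucosidase lists were 0.00 at 3 h and in replicate 1 of 5 h. In replicate 2 that of the glutathione S-transferases was −0.05 and those of the others 0.00. Limma tested 6, 10 and 8 genes of these 3 lists at 5 h, and 9, 10 and 8 in each of the other 2 tests. It called 0 of them at 5 h, over both times or for 5 h minus 3 h (0.0071%, 0.00689% and 0% of all probe sets). At an unadjusted p under 0.05 there were also 0 (1.15%, 1.9% and 0.172% of all probe sets).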

How the data were processed

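Transcript levels of 6 Affymetrix ATH1 arrays were used. The deposited table of the authors gives each array a log2 value for every probe set. The submitters' processing notes name GCRMA and RMA, with no version or role. The log base was taken as 2 from the range of the values (2.1 to 15.35). Of 22810 probe sets, 64 controls were left out; 13513 had 1 named gene, 503 several and 8730 were not listed and are unnamed. Names came from the platform annotation, matched by gene number to the RefSeq table of assembly TAIR10.1, which also gave the gene order; no source used here states the array's build, and no coordinates are printed.

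Tests used limma 3.58.1 in R 4.3.3 (lmFit and eBayes, trend on the mean level; two-sided p, adjusted by Benjamini-Hochberg over all probe sets tested; threshold 0.05). A filter kept probe sets with 2 or more arrays of the fit at 3.56, the 40th percentile of the table, or above. The 5 h fit had 4 arrays, the fit over both times 6 arrays with time as a covariate, and 5 h minus 3 h was a contrast among 4 groups. The fits were tested on simulated data. Precision is limited by the number of arrays. Biological replicates are numbered in the labels, which name no separate flasks or plants, and the p-values measure only how far these samples spread, which may be technical.

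Whether same-number arrays are paired was checked by how each array deviated from the mean of its treatment. The deviations of same-number estradiol and DMSO arrays correlated at 0.906 to 0.943. That mean covers both times, so these deviations also hold the difference between 3 h and 5 h. Within 5 h, replicate 1 minus replicate 2 correlated at 0.901 between estradiol and DMSO. Pairs that were normalized separately would also correlate in this way. Biological pairing and shared processing therefore cannot be told apart by this check. The arrays were treated as paired in the block fits. Block values stand beside each test in which that fit gave a member an unadjusted p under 0.05. Tests without the block include the differences between pairs in their error. Leaving out 1 array breaks a pair, and such a value also holds these differences. Members named with full values were those with the 10 largest mean absolute differences, an equal sign of at least 0.3 in all pairs, the 5 smallest p of a test, the highest level of a subfamily number, or a 2-fold difference in any pair. The members and lists were chosen with earlier results of these data known. Alternatives tried were the replicate block, quantile normalization, other filters, no trend, leaving out each array, and other ways of naming members.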

Additional observations from a re-analysis of the deposited data

Results flagged for a closer look

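For 3 UGT genes the 3 h pair differed in one direction and both 5 h pairs in the other, with 1 array per treatment at 3 h. UGT73B1 was at −0.12, 0.19 and 0.16 in the 3 pairs, and its effect at 5 h minus 3 h was 0.29 (SE 1.00, limma unadjusted p = 0.782, adjusted p = 1). That effect was −0.26 and 0.85 without the estradiol array of replicate 1 and of replicate 2 of 5 h, and 0.83 and −0.24 without the DMSO array of replicate 1 and of replicate 2. UGT73B5 was at −0.39, 0.64 and 0.02, with 0.72 (SE 1.36, limma unadjusted p = 0.624, adjusted p = 1), and with −0.15 and 1.59 without the estradiol array of replicate 1 and of replicate 2 and 1.28 and 0.15 without the DMSO array of replicate 1 and of replicate 2. UGT85A4 was at 0.05, −0.48 and −0.77, with −0.68 (SE 0.69, limma unadjusted p = 0.383, adjusted p = 1). Its effect was −1.10 and −0.25 without the estradiol array of replicate 1 and of replicate 2. Without the DMSO array of replicate 1 and of replicate 2 it was −0.40 and −0.955. The differences of 0.05 and −0.12 at 3 h are smaller than the SD of 0.22 over all probe sets in that pair.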

How the results depend on the processing

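The count of UGT genes past the threshold was 0 in the 3 tests under every alternative run, including each array left out (range 0 to 0). The single unnamed probe set called among all probe sets at 5 h and over both times was lost (0 called) with the replicate block, after quantile normalization, with no filter, with every array required at the 50th percentile, and without a trend; without single arrays the count was 0 to 1 in both tests, and it was 0 without either estradiol array of 5 h, and over both times also without either DMSO array of 5 h. The replicate block changed no other call. Of 155 values of named genes under alternatives, 4 reversed and 0 passed the threshold. The reversed values were UGT72E2 at 5 h without the DMSO array of replicate 2 (−0.01, in a range of −0.01 to 1.98 without single arrays), UGT73B1 for 5 h minus 3 h without the estradiol array of replicate 1 (−0.26) or the DMSO array of replicate 2 (−0.24) of 5 h (range −0.26 to 0.85), and UGT73B5 for 5 h minus 3 h without the estradiol array of replicate 1 (−0.15, range −0.15 to 1.59). UGT85A2 ran from 1.80 to 1.95 at 5 h, from 1.23 to 1.88 over both times and from 1.33 to 1.48 for 5 h minus 3 h, and UGT72E1 from −1.31 to −0.67 at 5 h. The median over members moved to −0.10, 0.20 and −0.02 in the 3 pairs when genes under the filter were dropped, by construction. It was 0.00 in every pair after quantile normalization, with the 5 genes left out by the rule, with RefSeq symbols, and with 4 genes added for a UGT name among RefSeq synonyms, a setting chosen after seeing the data. A gene at the lowest value of its arrays, as 8 of the 42 genes were on all 6, cannot show a decrease. Leaving out a 3 h array was not run for 5 h minus 3 h, since each 3 h group has 1.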

Other observations

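RefSeq lists a UGT name only as a synonym for 4 genes that the choice by symbol did not take, and their values were as follows. GT72B1 (AT4G01070, UGT72B1), known for conjugating chlorinated foreign phenols and monolignols, had levels of 9.56 with estradiol and 9.21 with DMSO at 3 h, 8.15 and 7.96 in replicate 1 of 5 h, and 6.75 and 7.58 in replicate 2. It was higher in the first 2 of these pairs and lower in the last. SGT (AT3G07020, UGT80A2), a sterol glucosyltransferase like UGT80B1, differed by 0.00, 0.15 and −0.37. UF3GT (AT5G54060, UGT79B1), an anthocyanin glycosyltransferase, had at most 2.82, and AT5G54010 (UGT79B6) was at the lowest value of every array.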
